A study of Mus musculus with 4 samples.

Results

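The annexins are a family of proteins that bind acidic phospholipids in the presence of calcium. Here they were compared between intestinal organoids and the crypts from which the organoids had been grown. The members are 10 annexin genes, Anxa1, Anxa2, Anxa3, Anxa4, Anxa5, Anxa6, Anxa7, Anxa10, Anxa11 and Anxa13, taken by gene name out of 28632 gene names on the array. They were chosen with their measured organoid to crypt ratios known, so those ratios are given as a description without a test. The array also carried Anxa8 and Anxa9, which are not members and are set beside them.

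The tested RNA came from organoids, crypts of the small intestine of 2 mice kept for 1 week in Matrigel with EGF, R-spondin and Noggin. The reference RNA came from the same animals' crypts, extracted directly after EDTA release from the tissue. No strain, age, sex, allele or transgene is given in the labels, and neither group carried a labelled genetic change. Organoid and crypt RNA of each mouse were hybridised together on 2 two-colour arrays with the dyes exchanged, which makes 4 arrays and 2 biological replicates. All 4 arrays lay on 1 slide with 1 scan time, so slide and scan do not separate the groups. Culture, time in vitro and the loss of the surrounding tissue came together and cannot be told apart. In these bulk samples a change in the share of a cell type and a change in RNA per cell cannot be told apart either.

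Annexins share a folded core that docks onto membranes when calcium rises, and they differ mainly in the stretch that precedes it. That stretch sets their partners, among them the small calcium-binding S100 proteins. In the intestinal epithelium annexins are known for vesicle transport to the apical surface, for resealing of damaged plasma membrane and, in the case of annexin A1, for limiting inflammation and promoting wound closure.

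Each value on these arrays comes from 60-base probes, and the 20 annexin probes differ from each other in sequence. The longest run of bases shared between probes of different annexins was 6 to 9 bases. The probes were compared only with each other, so whether a probe also binds RNA of another gene was not checked. The probes below are shown because they read the member with the inducible anti-inflammatory role, the member nearest to equal levels, an intestinal member and the member that was not detected. Capitals mark the longest run that each shares with a probe of another annexin.

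Anxa1, chr19:20448248-20449761 (mm9, minus strand): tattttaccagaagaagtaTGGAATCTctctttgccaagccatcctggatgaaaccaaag

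Anxa2, chr9:69337510-69337569 (mm9, plus strand): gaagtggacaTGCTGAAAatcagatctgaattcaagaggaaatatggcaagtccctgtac

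Anxa13, chr15:58173475-58173534 (mm9, minus strand): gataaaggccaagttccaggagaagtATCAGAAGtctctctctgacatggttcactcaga

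Anxa6, chr11:54798588-54798647 (mm9, minus strand): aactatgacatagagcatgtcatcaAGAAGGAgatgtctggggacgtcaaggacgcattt

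The positions are those in the scanner files. The Anxa1 probe covers 1514 genomic bases with its 60 bases, so its letters come from separate stretches of the gene. No annotation of the mm9 build was used here, so exons and untranslated regions are not named.

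Ratios are log2 of organoid over crypt, averaged over both dye orientations of a mouse and then over the mice, with the SD over n = 2 mice. Levels are normalised log2 channel intensities. They depend on the probe as well as on the RNA, so levels are set side by side only for the same probe. A probe counted as detected in a tissue when the scanner software marked it well above background, and it entered the analysis when it was so marked in all 4 organoid or all 4 crypt channels.

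Of the 10 members, 9 met that filter, with 14 of their 18 probes. By the brightest probe of each gene, 8 of these 9 were higher in organoids on all 4 arrays and none was lower on all 4, where 25.4% of the 15536 genes tested were higher and 21.7% were lower on all 4. A ratio of at least 2-fold in both mice was found for 3 members, Anxa3, Anxa10 and Anxa1, all higher, where 1.62% of all genes tested were so raised and 2.30% so lowered. The 8 include Anxa7, whose other probes differed in sign. The median ratio of the 9 was 0.51, against 0.02 over all genes tested. Since the members were chosen on this same contrast, these counts describe the choice. Anxa10 and Anxa1 met the filter through their organoid channels, where they are high.

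Anxa3, known from neutrophil granules and also made by epithelial cells, had the highest ratio of the family as processed here. Anxa10 stood above it without mouse 1, at 2.71 against 2.59 for Anxa3, and with the scanner software's own ratios. The levels of Anxa3 were 12.20 and 11.51 in organoids of mouse 1 and mouse 2, against 9.39 and 8.93 in crypts. Both organoid values lay above both crypt values. The ratio was 2.70 ± 0.16, or 6.50-fold, and the 4 arrays gave 3.23 and 2.39 in mouse 1 and 2.79 and 2.39 in mouse 2, with organoid RNA in Cy5 and then in Cy3. The probe was above background in all 8 channels. The other Anxa3 probe, which lies at another site and carries a cDNA clone name, was above background in none of them.

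Anxa10, an annexin known chiefly from stomach epithelium, was the member next in order. Its levels were 9.82 and 9.66 in organoids, against 7.88 and 6.96 in crypts. The ratio was 2.32 ± 0.55, or 5.00-fold, with 2.93 and 0.94 on the arrays of mouse 1 and 2.98 and 2.44 on those of mouse 2, in the same order of dyes. The probe was above background in 4 of 4 organoid channels and in 1 of 4 crypt channels. That crypt channel was the Cy5 channel of mouse 1, on the same array that gave the lowest ratio.

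Anxa1, the glucocorticoid-induced annexin that acts on formyl peptide receptors, came after it. Its levels were 8.81 and 8.39 in organoids, against 7.73 and 7.14 in crypts. The ratio was 1.17 ± 0.11, or 2.25-fold. The arrays gave 1.83 and 0.35 in mouse 1 and 1.25 and 1.25 in mouse 2. As for Anxa10, the crypt signal was above background only in the Cy5 channel of mouse 1, and that array gave the lowest ratio. For both genes the crypt level therefore lay near the limit of detection, and the size of the ratio differed between ways of processing. Without background subtraction it was 2.22 for Anxa10 and 1.06 for Anxa1. With the scanner software's own processed signals it was 5.35 for Anxa10 and 3.50 for Anxa1, against 3.17 for Anxa3. The cause of the larger scanner ratios was not tested.

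**Figure D1:**
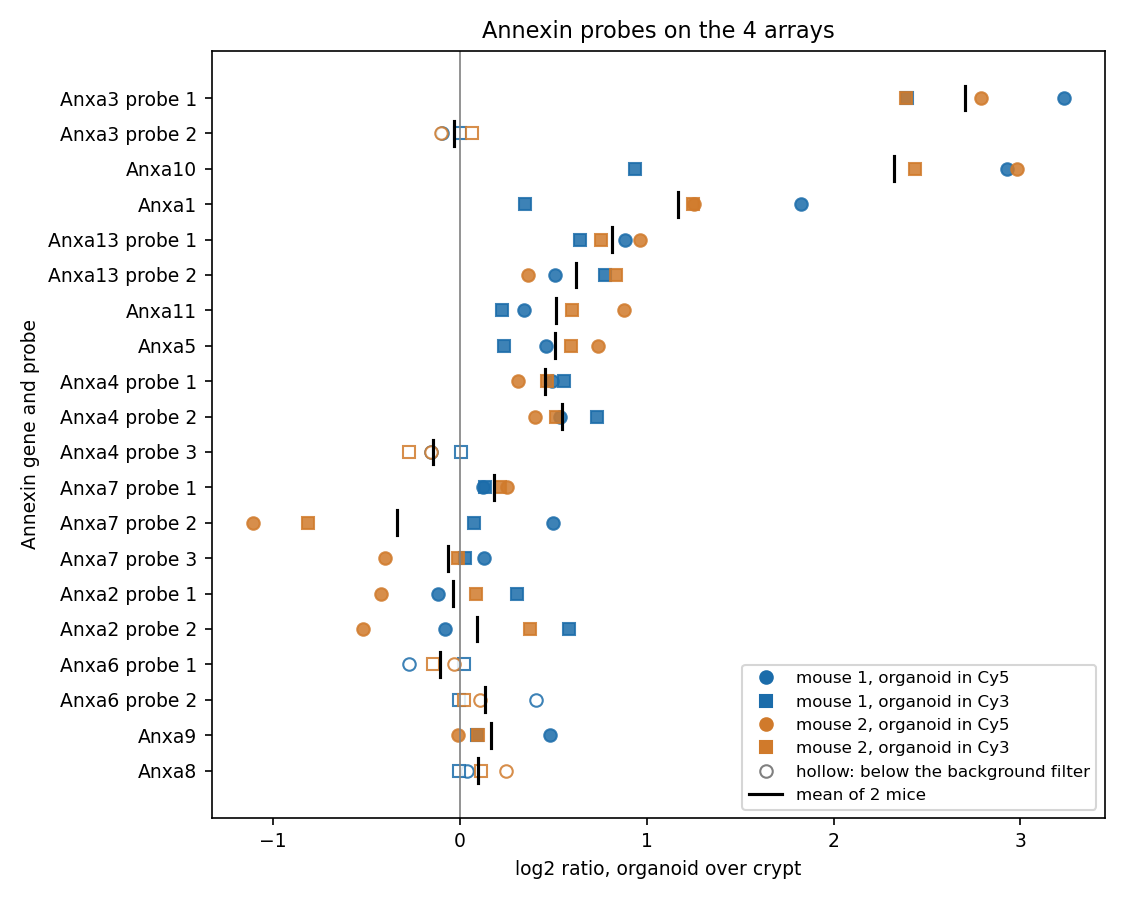
Log2 ratio of organoid over crypt (x axis) for each of the 20 annexin probes (rows), with 1 marker per array. Colour gives the mouse, shape the dye of the organoid RNA, the black line the mean of 2 mice, and hollow markers are probes that did not meet the background filter; the main probes of Anxa3, Anxa10 and Anxa1 lie furthest right, with the mouse 1 array that had crypt RNA in Cy5 (blue squares) lowest for Anxa10 and Anxa1.

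Anxa13, an intestinal annexin that is anchored by a lipid and acts in apical transport, was bright in both tissues. Its levels were 15.27 and 15.47 in organoids, against 14.50 and 14.61 in crypts. The ratio was 0.81 ± 0.07, and the 4 arrays lay between 0.65 and 0.97. The other Anxa13 probe, whose sequence is printed above, gave 0.62 ± 0.03. Both probes were above background in all 8 channels.

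Anxa4, which is abundant in secretory and absorptive epithelia and binds membranes of the apical side, was measured by a pair of detected probes. The brighter had 14.53 and 14.38 in organoids, against 14 and 13.99 in crypts. Its ratio was 0.46 ± 0.10, and the other gave 0.55 ± 0.12. A further Anxa4 probe was above background in no channel.

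Anxa5, the annexin used in the laboratory to detect phosphatidylserine on dying cells, had 9.80 and 9.88 in organoids, against 9.45 and 9.21 in crypts. Its ratio was 0.51 ± 0.23. Anxa11, which has a long N-terminal stretch and is known from vesicle transport and RNA granules, had 10.90 and 10.81 in organoids, against 10.61 and 10.07 in crypts. Its ratio was 0.51 ± 0.32. In both genes the difference was wider in mouse 2, at 0.67 for Anxa5 and 0.74 for Anxa11, than in mouse 1, at 0.35 and 0.29.

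Anxa7, or synexin, which brings granule membranes together, differed little by its brightest probe. The levels were 9.80 and 9.86 in organoids, against 9.67 and 9.62 in crypts, a ratio of 0.18 ± 0.07. The other detected probes of the gene did not give the same sign, with −0.33 ± 0.88 and −0.06 ± 0.20, so no direction is given for Anxa7.

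Anxa2, which forms a complex with S100a10 and serves as a co-receptor for plasminogen and its tissue activator, was bright in both tissues. Its levels were 13.91 and 13.35 in organoids, against 13.81 and 13.51 in crypts, so the ranges of the tissues overlapped. The ratio was −0.04 ± 0.18. Its sign followed the dye. With organoid RNA in Cy5 the arrays gave −0.11 and −0.42, and with organoid RNA in Cy3 they gave 0.31 and 0.09. The other Anxa2 probe, which covers 775 genomic bases, showed the same pattern around a mean of 0.09 ± 0.23.

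Anxa6, the annexin with a duplicated core, was not above background in any of the 8 channels with either of its 2 probes. No ratio is given for it, since neither tissue had a signal to compare. Of the annexins outside the list, Anxa9 had a ratio of 0.17 ± 0.17 and did not pass (limma, adjusted p = 0.512). Anxa8 was above background in 2 of 4 organoid and 2 of 4 crypt channels, the Cy5 channel of each tissue in each mouse, and was not tested.

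In the order of ratios, Anxa3 and Anxa10 differed by less than the SD of Anxa10. Anxa10 stood above Anxa1, and Anxa1 above Anxa13, by more than the SD of either neighbour, but the crypt signal of Anxa10 and of Anxa1 was above background in 1 of 4 channels, so their places are uncertain. With the scanner's own ratios both lay above Anxa3. Anxa13, Anxa11, Anxa5 and Anxa4 followed in an order whose steps lay within the SD of at least 1 neighbour. Anxa7 and Anxa2 came last.

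**Figure D2:**
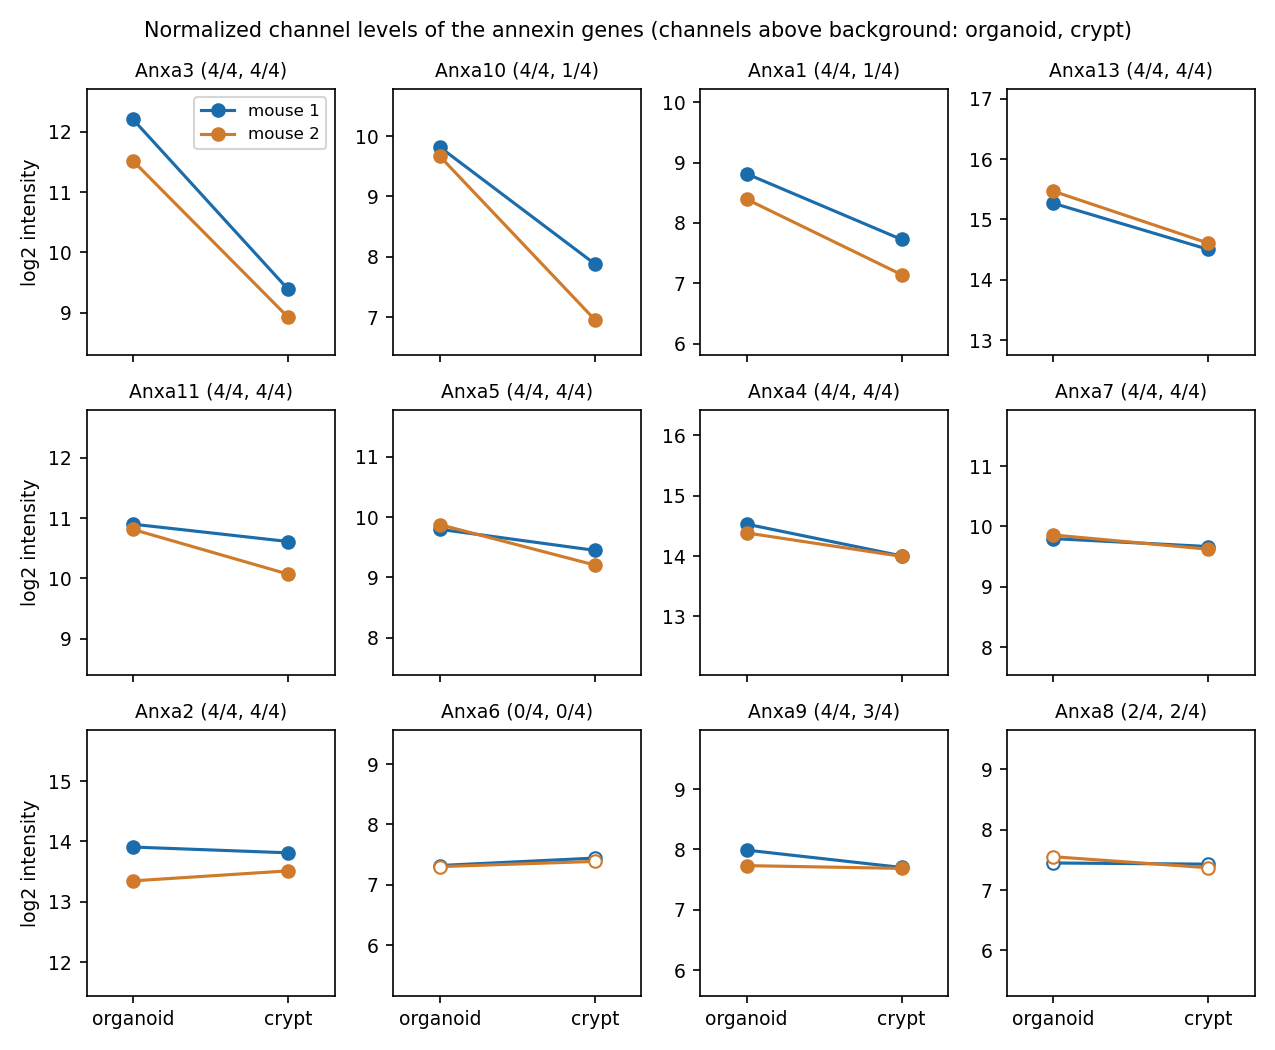
Normalised log2 channel intensity (y axis, a span of equal length in each panel) in organoid, left, and crypt, right, for the 10 members and for Anxa9 and Anxa8, with 1 line per mouse. Each title gives the number of organoid and crypt channels above background out of 4; the lines of Anxa3, Anxa10 and Anxa1 fall most steeply from left to right, those of Anxa2 are nearly level, and hollow points mark Anxa6 and Anxa8, which did not meet the background filter.

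The genes whose 4 array ratios lay nearest to those of the highest and the lowest member were looked up by Euclidean distance over the 4 arrays. Nearest to Anxa3 were Scd1, which makes monounsaturated fatty acids, with a ratio of 2.88 at a distance of 0.484, the metallothionein Mt1 with 2.80 at 0.485, and the glycolytic aldolase gene Aldoc with 2.80 at 0.494. Nearest to Anxa2 were Stx3, an apical syntaxin, with −0.04, the metalloprotease gene Nrd1 with −0.06, and Zbtb17, which encodes a transcription factor, with −0.05. These distances ranged between 0.0919 and 0.0991. Since they were picked for their likeness, no test is attached to them.

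Promoter sequence was available for 7 of the 10 members, from 250 bases before to 50 bases after the start of the gene (RefSeq, GRCm38.p6). Each window was searched on both strands for CATTCC, the core bound by TEAD factors, and for TGANTCA, the core bound by AP-1. CATTCC was found in 1 of the 7 members, Anxa1, and in 14.7% of all 32851 windows. TGANTCA was found in 2 of the 7, Anxa10 and Anxa2, and in 7.81% of all windows. A match describes letters only. The upstream parts are shown for the members with high ratios that have a window and for Anxa2, which carries the same AP-1 core and had a ratio near 0, with matches in capitals.

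Anxa10, chr8:62123194-62123443 (minus strand): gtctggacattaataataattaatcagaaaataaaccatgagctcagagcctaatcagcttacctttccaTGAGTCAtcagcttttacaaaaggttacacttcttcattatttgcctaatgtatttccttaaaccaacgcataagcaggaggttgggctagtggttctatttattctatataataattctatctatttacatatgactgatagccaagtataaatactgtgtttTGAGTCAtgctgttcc

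Anxa1, chr19:20390672-20390921 (minus strand): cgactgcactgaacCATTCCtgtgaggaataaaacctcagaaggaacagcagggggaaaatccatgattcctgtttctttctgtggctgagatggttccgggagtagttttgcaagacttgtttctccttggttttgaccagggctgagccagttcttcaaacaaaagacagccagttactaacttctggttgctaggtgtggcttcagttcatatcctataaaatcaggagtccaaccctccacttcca

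Anxa2, chr9:69453433-69453682 (plus strand): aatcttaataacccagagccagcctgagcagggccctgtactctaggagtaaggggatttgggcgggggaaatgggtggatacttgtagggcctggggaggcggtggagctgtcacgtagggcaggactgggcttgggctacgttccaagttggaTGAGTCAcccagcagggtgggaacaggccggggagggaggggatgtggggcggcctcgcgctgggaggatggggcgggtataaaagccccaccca

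Anxa10 held the AP-1 core at 2 places, 180 and 16 bases before the start of the gene, and Anxa2 held it at 1 place, 95 bases before it. The TEAD core of Anxa1 lay 236 bases before the start.

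Annexins act with other proteins, and the genes of those pathways, together with Anxa9, were tested across the whole table by limma. Of 71 such genes tested, 19 passed, 12 higher and 7 lower in organoids, where 5.46% of all genes passed as higher and 5.49% as lower. The gene lists were chosen with earlier results of these data known, so nothing is read from this count. With each array centred on its median in place of the intensity-dependent dye correction, 3 of the 71 passed, S100a14, Clu and Il33. The ratios themselves were not all smaller there, with 1.54 for Plaur, 1.51 for Pla2g4a and 1.23 for Plscr1. With organoid RNA in Cy3 alone the calls of S100a11, S100g, Cpne2, Sgk1, Klf9, Il1rn and Ccn2 were lost, and with the scanner's own ratios those of S100g and Pla2g12b. With no filter on dim probes those of S100g, Plgrkt, Cpne2, Sgk1, Klf9 and Ccn2 were lost. The ratios of Plaur and Plat were over 1.5 times larger with the scanner's own ratios, at 2.27 and 1.74.

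Among 12 tested S100 genes, 3 passed as higher, 9 did not pass and none was called lower, with a median ratio of 0.31. S100a14, an epithelial S100 protein, rose by 1.89 ± 0.27, with 1.70 in mouse 1 and 2.08 in mouse 2 (limma, adjusted p = 0.00406). S100a11, the partner of annexin A1, rose by 0.80 ± 0.04 (limma, adjusted p = 0.0223). S100g, the intestinal calcium carrier calbindin-D9k, rose by 0.79 ± 0.18 (limma, adjusted p = 0.0283). S100a10, the partner of annexin A2, had 13.50 and 13.40 in organoids, against 13.78 and 13.85 in crypts. Its ratio of −0.37 ± 0.12 did not pass (limma, adjusted p = 0.153), and neither did S100a6, another annexin-binding member, at 0.79 ± 0.51.

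Of the plasminogen system, 4 genes were tested, 3 rose and 1 did not pass, with a median ratio of 1.15. Plaur, the receptor of urokinase, rose by 1.37 ± 0.21 (limma, adjusted p = 0.00756). Plgrkt, a plasminogen receptor of the cell surface, rose by 1.19 ± 0.32 (limma, adjusted p = 0.0147). Plat, the tissue plasminogen activator, rose by 1.12 ± 0.04 (limma, adjusted p = 0.00925). Each had both organoid levels above both crypt levels, for example 9.85 and 9.38 in organoids, against 8.70 and 8.28 in crypts for Plat. Serpinf2, a plasmin inhibitor, was at 0.08 and did not pass. Plau, Plg and Serpine2 were above background in no channel.

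Of 16 genes of membrane repair and calcium-dependent trafficking, none rose, 1 fell and 15 did not pass, with a median ratio of −0.26. The gene that fell was Cpne2, which encodes a copine that binds membranes with calcium, at −1.61 ± 0.58 (limma, adjusted p = 0.0150). Ahnak, a giant protein that binds the complex of annexin A2 and S100a10, was at −1.16 ± 0.79 and did not pass (limma, adjusted p = 0.0615). The calpain gene Capn1 was at −0.47 and did not pass either.

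Of 12 phospholipase A2 genes, whose products annexin A1 was first described as inhibiting, 1 rose, 2 fell and 9 did not pass, with a median ratio of −0.15. Pla2g4a, the cytosolic enzyme that releases arachidonic acid, rose by 1.27 ± 0.22 (limma, adjusted p = 0.00902). Pla2g2a, a secreted enzyme of Paneth cells, fell by 1.74 on the log2 scale (SD 0.23, limma, adjusted p = 0.00444). Pla2g12b fell by 0.90 (SD 0.12, limma, adjusted p = 0.0182). The formyl peptide receptors, through which annexin A1 signals, could not be tested. Fpr2 was above background in no channel, and Fpr1 did not meet the filter.

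Of 11 genes for exposing and recognising phosphatidylserine, the lipid that annexin A5 binds, 2 rose, 1 fell and 8 did not pass. The scramblase-family genes Plscr1 and Plscr3 rose by 0.92 ± 0.04 and 0.89 ± 0.01 (limma, adjusted p = 0.0157 and 0.0169). Ano6, a calcium-activated scramblase, fell by 0.95 (SD 0.10, limma, adjusted p = 0.0154). Mfge8, a secreted phosphatidylserine binder, was at 0.86 ± 0.44 and did not pass (limma, adjusted p = 0.0501).

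Of 8 glucocorticoid response genes, none rose, 2 fell and 6 did not pass. Sgk1, a kinase gene induced by corticosteroids, fell by 1.85 (SD 1.00, limma, adjusted p = 0.0304). Klf9 fell by 0.78 (SD 0.23, limma, adjusted p = 0.0343). Fkbp5 was at −0.95 ± 0.73 and did not pass. The receptor gene Nr3c1 was at −0.03.

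Of 7 genes described in regenerating or fetal epithelium, 3 rose, 1 fell and 3 did not pass. Clu, a secreted chaperone, had 10.59 and 10.00 in organoids, against 8.47 and 7.63 in crypts, a ratio of 2.25 ± 0.17 (limma, adjusted p = 0.00245). Ccn2, a matrix protein and target of YAP and TEAD, rose by 0.78 ± 0.12 (limma, adjusted p = 0.0255), with 2 of 4 crypt channels above background. Its ratio ran between 0.39 and 2.33 over the alternatives, and the call was also lost without background subtraction (limma, adjusted p = 0.0649). Il1rn, the interleukin-1 receptor antagonist, rose by 1.10 ± 0.17 (limma, adjusted p = 0.0121), with no crypt channel above background. It met the filter through its organoid channels, where it is high. The ratio of Il1rn ran between 0.60 and 4.11 over the alternatives. Il33, an alarm cytokine, fell by 2.54 (SD 0.31, limma, adjusted p = 0.0025), with 2 of 4 organoid channels above background. With the scanner's own ratios its ratio was −4.69.

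**Figure D3:**
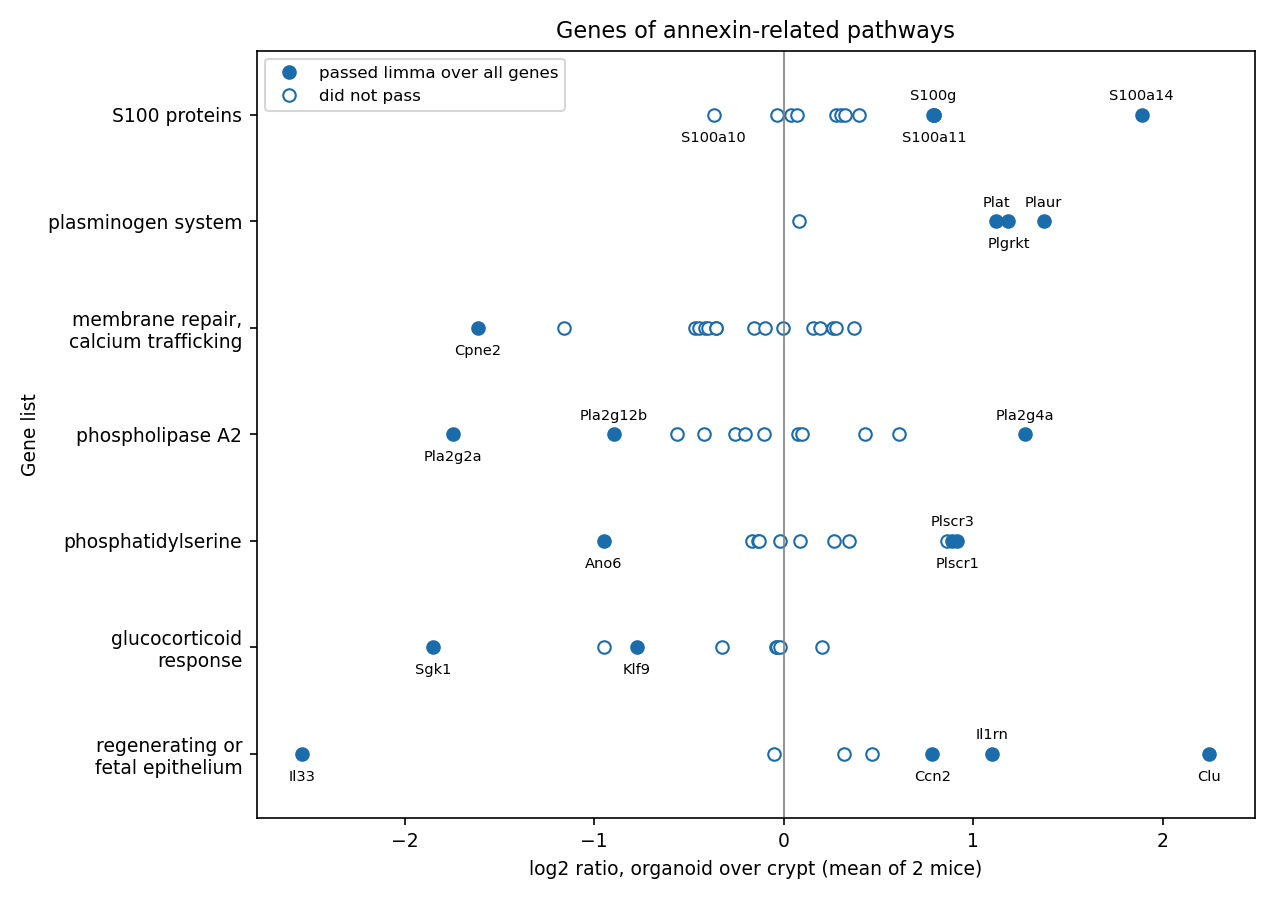
Log2 ratio of organoid over crypt (x axis, mean of 2 mice) for the tested genes of 7 pathway lists (rows), with filled points for genes that passed limma over all genes and hollow points for those that did not. Names are given for genes that passed and for S100a10; the 3 filled points of the plasminogen system lie to the right of 1, and membrane repair has 1 filled point, Cpne2, to the left.

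Marker genes of other cells were set beside these ratios. Over all genes tested, 5.46% passed as higher and 5.49% as lower. All 8 epithelial genes were above background in organoids and in crypts, of which 1 rose, 3 fell and 4 did not pass. Of 16 genes of white blood cells, none rose and 6 fell, and their summed level was 13.9 and 14.1 in organoids, against 16.1 and 16.1 in crypts. That sum adds the intensities of different probes and is mostly Lyz2. Without Lyz2, the other 15 summed to 11.7 and 11.6 in organoids, against 12.5 and 12.4 in crypts. Among them the cytotoxic granule gene Gzma fell by 2.80 (SD 0.15), with 1 of 4 organoid channels above background, and its ratio was −5.75 with the scanner's own ratios. Lyz2, which macrophages and, in the intestine, Paneth cells express, fell by 2.32 (SD 0.18) by its brightest probe. With the mean over probes its ratio was −1.45. Anxa1 and Anxa3 are known to be expressed by white blood cells too. Of 6 genes of stroma, muscle and vessels, 1 rose, Lyve1, and 1 fell, Acta2. The 6 summed to 13.1 and 12.9 in organoids, against 13.6 and 13.2 in crypts, and that sum is mostly Acta2. Acta2 was at −0.66, and at −0.31 with the mean over probes, where it did not pass (limma, adjusted p = 0.197). Its call was lost under 6 alternatives. The call of Lyve1, at 1.03, was lost under 3. Cdh5, Dcn, Des, Lum, Pdgfra and Pecam1 were above background in no channel. The part of these cells in the annexin ratios was not tested.

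Across 12 or 13 alternatives each, Anxa3 ranged between 2.39 and 3.17, Anxa10 between 1.69 and 5.35, and Anxa1 between 0.80 and 3.50. Anxa13 ranged between 0.70 and 1.22, Anxa4 between 0.39 and 0.83, Anxa5 between 0.35 and 0.69, and Anxa11 between 0.29 and 0.74. Anxa2 spanned −0.27 to 0.31 and Anxa7 spanned −0.07 to 0.37, so neither kept its sign.

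**Figure D4:**
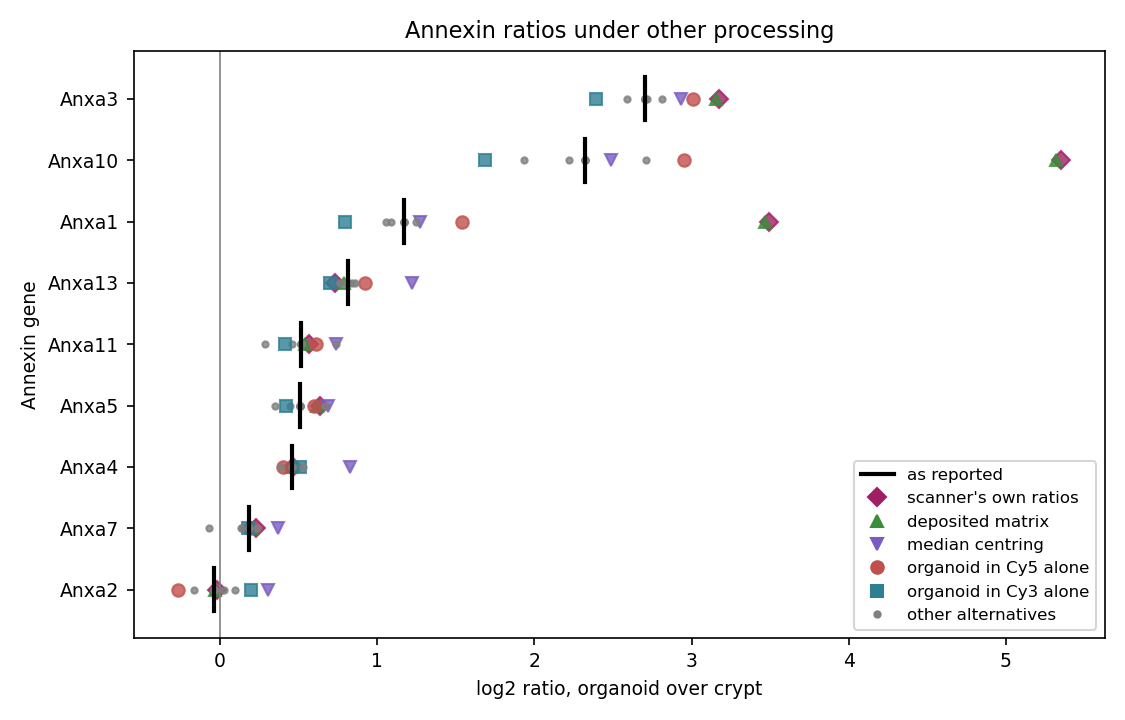
Log2 ratio of organoid over crypt (x axis) of the 9 detected members (rows) as reported, black line, and under each alternative processing, markers. The scanner software's own ratios and the deposited matrix lie far to the right for Anxa10 and Anxa1, at 5.35 and 3.50 for the scanner's ratios, and the markers of Anxa2 and Anxa7 fall on both sides of 0.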

How the data were processed

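Scanner files of 4 two-colour arrays were used. Per the file headers, mean spot and local background intensity, the scanner software's log10 ratio of Cy5 over Cy3 and its marks came from Agilent Feature Extraction 10.2.1.3. The submitters' processing notes give 9.5.3. The matrix deposited by the authors held log2 ratios of Cy5 over Cy3, centred on a median of 0 (r of 0.978 to 0.991 with the scanner ratios), and how it was made was not stated. The labels name Trizol for the RNA and the design text another kit.

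With limma 3.58.1 in R 4.3.3, intensities were background-corrected (normexp, offset 50) and loess-normalised with control spots at weight 0. Spots marked as outliers were left out. Each ratio was given the direction organoid over crypt from the labelled dyes, and both arrays of a mouse were averaged, so n = 2. lmFit and eBayes were run on 15536 genes, each by its brightest detected probe, with Benjamini-Hochberg adjustment at 0.05. Channel levels were Aquantile-scaled. Between 51.4% and 61.6% of probes were above background in organoid channels and 53.7% to 67.1% in crypt channels. The number of mice, n = 2, limits the precision. The method was tested on simulated data. The members and gene lists were chosen with earlier results of these data known. Named were all members, and per list up to 4 genes that passed and 2 that did not, by size of ratio, with S100a10, S100a11 and the 3 genes nearest to the highest and to the lowest member. Plau, Plg, Serpine2, Fpr1, Fpr2, Nr3c1 and the undetected stromal genes were named after their values were seen.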

Additional observations from a re-analysis of the deposited data

How the results depend on the processing

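The annexin ratios kept their sign under the alternatives run, except Anxa2 and Anxa7, which crossed 0. Their median, 0.51 as reported, was 0.83 with median centring, where the median of all genes moved to 0.17 and the annexins stood 0.66 above it. It was 0.53 to 0.74 when a mouse was left out, with no test possible, and the higher value was without mouse 1. Among all genes 1702 passed (849 higher, 853 lower), against 230 with median centring (134 higher, 96 lower), 677 with no filter on dim probes, 908 with organoid RNA in Cy3 alone, 3709 when the 4 arrays were fitted singly beside a dye term, and 3081 when they were fitted with the mouse as a random replicate block. Of the pathway genes and Anxa9, 19 passed, against 3 with median centring, 35 beside the dye term and 30 with the replicate block. The fit beside the dye term counts arrays of the same RNA as separate. The replicate block also takes the 4 arrays, but as correlated within a mouse, with a correlation of 0.173 shared by all genes. The cause of these shifts was not tested. Without background subtraction, with the scanner's ratios, with the deposited matrix, with all 8 channels above background, with the mean over probes and with organoid RNA in Cy5 alone, the counts of all genes and of pathway genes stayed within 1.5 times. For Anxa1 and Anxa10, whose crypt signal was above background in 1 of 4 channels, the size of the ratio is uncertain.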

Other observations

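An Anxa7 probe differed in sign between the mice. It gave 0.50 and 0.08 on the arrays of mouse 1 and −1.11 and −0.81 on those of mouse 2, with organoid levels of 8.96 and 8.25, against crypt levels of 8.67 and 9.21. The brightest probe of the gene gave 0.13 and 0.24 for the mice, with no change of sign. The remaining detected probe gave 0.08 and −0.20, a change of sign in the same direction but smaller.

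Pla2g2a differed more between the mice than between the tissues. Its levels were 14.17 in organoids, against 16.07 in crypts, of mouse 1, and 8.87 in organoids, against 10.46 in crypts, of mouse 2. The ratio of organoid over crypt was similar in the mice, at −1.90 and −1.58.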
